A study of Drosophila melanogaster with 2 samples.

Results

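The regions described here are the Hr38 ChIP-seq regions that lay between genes. They were taken from the authors' pooled list of peaks and background regions on the dm6 build. A region counted as intergenic where its summit fell outside every annotated transcript other than those of transposable elements, and more than 500 bp from every transcription start site (TSS) of a protein-coding gene. Of 19279 regions in the pooled list, 4104 met that rule, a share of 21.3% (95% Wilson interval 20.7 to 21.9%). Of these, 82 were among the 768 regions that passed the authors' irreproducible discovery rate (IDR) threshold, called the thresholded list below. The IDR is based on how alike regions rank in replicates, but single members need not rank alike. These 82 were the intergenic regions with the highest pooled scores. The 2 biological replicates belong to 1 group. Each is chromatin of whole animals, males and females together, taken as white prepupae from flies that carry Hr38 with GFP fused to its C terminus, fragmented by sonication and precipitated through the GFP. An age of 48 h is stated in the labels, but not from which event it counts. Whole animals were used, so the cells in which a region was bound are not resolved, and the fusion protein comes from a transgene that the flies carry. There is no second condition in the series, the control experiment named in the labels was not analysed here, and the depth of the libraries is unknown. Each region carries a score from the authors, whose scale is not stated. Intervals given for shares cover the spread over regions or genes and not the spread between replicates.

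Hr38 is the only fly member of the Nr4a family of orphan nuclear receptors. Its mammalian relatives bind DNA as monomers at an extended nuclear receptor site called the NBRE, and in flies Hr38 can pair with Ultraspiracle, the partner of the ecdysone receptor. White prepupae stand at the onset of metamorphosis, after a pulse of the steroid hormone ecdysone. In the fly genome much of the control of developmental genes comes from enhancers in the sequence between genes, and an enhancer does not always act on the nearest gene. For that reason both flanking genes are given for each region, as the nearest protein-coding gene to the left and to the right, joined by a slash. No expression was measured, so a flanking gene is a neighbour and not a shown target.

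The summit windows of the 6 highest-scoring intergenic gaps outside the chromosome arm left out of printing are shown to give the sequence under the strongest regions. Each window runs 60 bp to either side of the summit on the plus strand of the release 6 assembly (dm6), and the name gives both flanking genes. Capitals mark a match, on either strand, to any of 13 motifs that were searched. Those found were GCCAT, the core of sites for the Polycomb recruiter Pho, in 3 windows, CGATA in 1 and the GATA factor site AGATAAG in 1. The window of CG6168/CG6163 held none of them.
mtSSB/tara, 3R:16222416-16222536: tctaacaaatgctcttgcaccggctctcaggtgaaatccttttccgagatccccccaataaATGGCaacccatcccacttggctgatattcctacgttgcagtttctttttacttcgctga
COX7AL2/CG31668, 2L:2202373-2202493: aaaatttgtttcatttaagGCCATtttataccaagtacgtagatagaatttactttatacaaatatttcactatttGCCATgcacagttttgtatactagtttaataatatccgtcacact
Cyt-c1L/eEF1gamma, 3R:29214371-29214491: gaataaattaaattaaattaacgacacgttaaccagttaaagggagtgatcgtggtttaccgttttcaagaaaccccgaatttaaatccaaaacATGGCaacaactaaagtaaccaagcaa
CG43245/CG12523, 3L:10776544-10776664: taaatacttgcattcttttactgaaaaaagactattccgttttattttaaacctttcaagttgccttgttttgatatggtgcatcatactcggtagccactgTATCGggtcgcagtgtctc
CG6168/CG6163, 3L:11325760-11325880: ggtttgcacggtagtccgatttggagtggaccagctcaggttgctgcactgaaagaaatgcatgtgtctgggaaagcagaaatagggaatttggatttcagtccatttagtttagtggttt
CG43131/RabGGTa, 3R:5113235-5113355: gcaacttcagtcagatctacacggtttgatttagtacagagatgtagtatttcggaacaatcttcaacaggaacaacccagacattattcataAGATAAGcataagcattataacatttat
None of these windows held the nuclear receptor core AGGTCA or the NBRE. The GCCAT core is short and common, and it was found in 36.6% of the 82 thresholded intergenic windows of 100 bp to either side of the summit, in 42.9% of the other intergenic windows and in 34.8% of all 192758 windows of that length cut from eligible intergenic sequence.

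Thresholded intergenic windows outside the arm left out that held AGGTCA, the AP-1 site TGANTCA or the GAGA factor site GAGAGAG follow, with 20 bp to either side of the middle of the motif and the motif in capitals. They are shown because these are sites of nuclear receptors, of an activity-regulated factor and of a factor that keeps chromatin open.
COX7AL2/CG31668, 2L:2202494-2202534: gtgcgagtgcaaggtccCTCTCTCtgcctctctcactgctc
CG12643/alpha-Man-Ia, X:10265952-10265992: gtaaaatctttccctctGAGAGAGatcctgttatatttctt
CG12689/ct, X:7604781-7604821: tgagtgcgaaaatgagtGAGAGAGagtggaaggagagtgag
hng3/CG13898, 3L:787841-787881: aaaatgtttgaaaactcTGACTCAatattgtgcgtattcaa
Gr93d/glec, 3R:21848963-21849003: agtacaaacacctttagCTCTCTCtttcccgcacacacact
CG4267/Ser12, 2L:2249640-2249680: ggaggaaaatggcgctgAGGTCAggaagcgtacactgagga
lz/c12.1, X:9305992-9306032: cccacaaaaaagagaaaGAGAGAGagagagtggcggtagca
spn-D/Ser, 3R:27167490-27167530: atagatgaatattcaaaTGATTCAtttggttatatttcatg
Capitals mark 1 match a window, and where the repeat runs on, as beside ct and lz, further matches overlap it. The match beside ct, the gene of a homeodomain factor of sense organs, lay 83 bp from the summit, and that beside lz, the gene of a Runx factor, 70 bp from it. The match to AGGTCA, between CG4267 and Ser12, lay 44 bp from the summit. A match is a description and not a shown binding site.

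No thresholded intergenic window held the full NBRE, AAAGGTCA. The highest-scoring intergenic regions outside the arm left out that did hold it were not in the thresholded list. They are shown because this is the site known for the mammalian relatives of Hr38.
Con/CG4597, 3L:5128505-5128545: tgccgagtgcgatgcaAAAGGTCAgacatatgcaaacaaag
Samuel/CG14915, 2L:11069017-11069057: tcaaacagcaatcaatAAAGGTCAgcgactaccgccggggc
CG10317/ss, 3R:16372759-16372799: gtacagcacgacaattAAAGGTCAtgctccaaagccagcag
CG15429/Traf4, 2L:4360639-4360679: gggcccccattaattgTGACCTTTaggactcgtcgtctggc
Their scores were 48.7, 46.2, 42.3 and 41.8 in the order shown. The third lay beside ss, the gene of the bHLH-PAS factor Spineless of antenna and leg identity, and the fourth beside Traf4, the gene of a signalling adaptor.

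Over the whole set, the NBRE was found in 0 of the 82 thresholded intergenic windows, which allows a share of up to 3.66%. It was found in 32 of the 4022 other intergenic windows (0.796%, 95% interval 0.564 to 1.12%) and in 0.695% of all windows of eligible sequence. AGGTCA was found in 1 of 82 thresholded windows (1.22%, 0.216 to 6.59%), in 3.51% of the other intergenic windows (2.98 to 4.12%) and in 5.15% of all windows. For the NBRE the level over all windows thus lay inside the interval of the 4022 regions, and for AGGTCA it lay above it. GAGAGAG stood in 5 of 82 thresholded windows (6.10%, 2.63 to 13.5%), in 2.76% of the others and in 2.25% of all windows. TGANTCA also stood in 5 of 82 (6.10%), in 4.05% of the others and in 3.60% of all windows. The repeat CACACACA stood in 8 of 82 (9.76%, 5.03 to 18.1%), in 5.67% of the others and in 3.81% of all windows. Base composition did not follow the order of these shares. The mean GC content was 40.5% in thresholded intergenic windows, 45.0% in the other intergenic windows and 40.7% in all windows. The thresholded regions in the rest of the pooled list had a mean GC content of 38.2%. With 82 windows the intervals are wide. At 100 bp each of the last 3 motifs named has the level of the other intergenic windows inside its interval. Further motifs of the 13 searched also had a larger share in the thresholded windows, and their intervals too held the level of the others. The level over all windows lay below the interval for the GAGA factor site and for the repeat, and inside it for the AP-1 site. For GAGAGAG the result against the other intergenic windows depended on the width. Within 250 bp of the summit it was found in 15 of 82 thresholded intergenic windows (18.3%, 11.4 to 28.0%), in 6.19% of the others and in 5.50% of all windows, so both levels lay below the interval. This was not particular to intergenic regions. The thresholded regions in the rest of the pooled list held it in 21.6% of windows at 250 bp and in 6.56% at 100 bp. Within 50 bp it was found in 0 of 82, which allows up to 3.66%, in 1.67% of the others and in 1.12% of all windows.

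Intergenic regions were a larger part of the list the weaker the regions were. They made up 7 of the 100 highest-scoring pooled regions (7.00%, 3.43 to 13.7%) and 75 of the next 668, down to rank 768 (11.2%, 9.05 to 13.8%). Their share was 14.9% at ranks 769 to 2000, 17.5% at ranks 2001 to 5000, 22.1% at ranks 5001 to 10000 and 23.8% below that. In the thresholded list they were 82 of 768, or 10.7%. Read the other way, 82 of 4104 intergenic regions were in the thresholded list (2.00%, 1.61 to 2.47%), against 686 of 15175 in the rest of the pooled list (4.52%, 4.20 to 4.86%). The share over the whole pooled list was 3.98%, so a lower part of the intergenic regions passed than of the list as a whole. The scores differed less. Intergenic regions ran from 28.2 to 564 with a median of 33.8, and the rest of the pooled list ran from 28.2 to 629 with a median of 35.1. Among thresholded regions the median was 97.4 for intergenic ones and 107 for the rest. The authors' -log10 q value was at its top of 2.91 in 36 of the 82 thresholded intergenic regions and had a median of 0.0525 over all 4104.

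**Figure D1:**
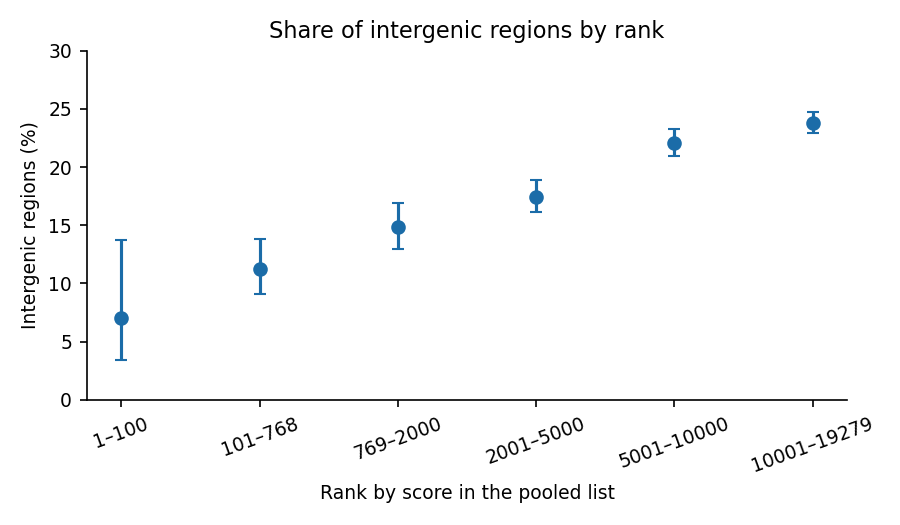
Share of intergenic regions (%) in 6 rank classes of the pooled list, from the highest scores on the left to the lowest on the right, with 95% Wilson intervals over regions. The share is 7.00% at ranks 1 to 100 and 23.8% at ranks 10001 to 19279.

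The strongest intergenic region of the series lay between RYBP and Ppa on 2R, at 22678166 to 22678624. RYBP encodes a subunit of a Polycomb repressive complex and Ppa an F-box protein. The region was the widest intergenic one, at 459 bp, and had a pooled score of 564 and rank 2 of the whole list, with a score of 213 and rank 11 in replicate 1 and a score of 358 and rank 1 in replicate 2. Both genes end towards it, RYBP 5215 bp to its left and Ppa 6528 bp to its right, so it lies beyond the 3' ends of both. A further thresholded region in the same gap scored 129, with 79.9 in replicate 1 and 47.1 in replicate 2. The next intergenic region also lay beside a Polycomb group gene, between Su(z)2 and CG13323 on 2R. It scored 353, with 167 in replicate 1 and 184 in replicate 2, and it was 27420 bp beyond the 3' end of Su(z)2. Psc, the neighbour and paralog of Su(z)2, flanked a thresholded region with a score of 96.6 that lay 4161 bp upstream of it. That region overlapped a replicate 2 region with a score of 26.8, at rank 2653, and no region of the replicate 1 list, and no other thresholded intergenic region lacked an overlap in a replicate list.

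The third intergenic region by score lay between mtSSB, the gene of the mitochondrial DNA-binding protein of that name, and tara. tara encodes Taranis, a nuclear protein of the trithorax group that is also known for its part in sleep. The summit was 3175 bp upstream of tara and 17226 bp upstream of mtSSB, and the score was 337, with 183 in replicate 1 and 153 in replicate 2. A second thresholded region stood 1178 bp upstream of tara with a score of 87.5, 46.5 in replicate 1 and 51.0 in replicate 2. The gap of 20400 bp between these genes holds 7 annotated long noncoding RNA genes. The region between COX7AL2, a gene for a cytochrome c oxidase subunit 7A-like protein, and CG31668 scored 315, with 186 in replicate 1 and 131 in replicate 2. A weaker thresholded region in that gap of 5808 bp scored 107. The region between Cyt-c1L, a cytochrome c1-like gene, and eEF1gamma, a translation elongation factor gene, scored 223, with 135 in replicate 1 and 84.0 in replicate 2. These 5 regions ranked within the first 100 of both replicate lists.

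The other regions described among the 20 highest scored between 128 and 187. They lay beside genes of mixed function. Developmental neighbours were ex, a Hippo pathway gene that limits tissue growth, with a region 3682 bp upstream of it that scored 159, and ct, whose region 3710 bp upstream scored 128. Shal, the gene of a voltage-gated potassium channel, ended 6265 bp from a region with a score of 133. Metabolic and housekeeping neighbours included Adk3, an adenylate kinase gene, Gadd45, a DNA damage and stress response gene, RabGGTa, which encodes a subunit of Rab geranylgeranyl transferase, and alpha-Man-Ia, an N-glycan mannosidase gene. The regions between Adk3 and Gadd45 scored 180 and 132. They overlap each other. In each replicate list their highest-scoring overlapping region is the same, with a score of 68.7 in replicate 1 and 111 in replicate 2. They may thus be 1 signal listed as 2, and both are counted. Other genes beside these regions were CG43245, CG12523, CG30114, CG46388, CG6168, CG6163, CG43131, hng3, CG13898, CG7560, CG6149, BBS8, a cilium gene, CG12643, CG30151, CG30154, CG9300 and CG12689. Over all 82 thresholded intergenic regions there were 139 different flanking genes, which is 0.995% of the 13968 protein-coding genes on the arms. Of these 139, 53 (38.1%, 30.5 to 46.4%) were named by a CG number only, against 43.7% of all protein-coding genes.

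The thresholded intergenic regions were the 82 intergenic regions with the highest pooled scores, and they need not rank alike in the replicates. The pooled list draws on both replicates, so counts of these regions in both replicate lists are a description. In the replicate 1 list, 65 of the 82 thresholded intergenic regions overlapped one of the 768 highest-scoring regions, against 554 of the 686 thresholded regions elsewhere. In replicate 2 these counts were 57 of 82 and 529 of 686. For both replicates together they were 43 of 82 (52.4%) and 418 of 686 (60.9%). Over the whole intergenic set, 77.9% overlapped a replicate 1 region (76.6 to 79.1%) and 58.1% a replicate 2 region (56.6 to 59.6%), against 75.5% and 67.0% in the rest of the pooled list. Only 39.0% of intergenic regions overlapped a region of both lists, against 45.5% of the rest, and 3.02% overlapped none. The lower overlap of intergenic regions was thus on the side of replicate 2. Since both replicate lists include background regions by design, an overlap with them is a weak criterion.

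Among thresholded intergenic regions, 4 of those with the largest rank differences show how far replicates could part within the threshold. Between Alp13 and Fmr1, the gene of the fragile X protein, the score was 23.7 (rank 8851) in replicate 1 and 60.3 (rank 247) in replicate 2. Between Ir68a, a gene of the ionotropic receptor family, and scyl, a gene of an inhibitor of TOR signalling, the scores were 27.6 and 74.9. The other two leaned to replicate 1. The weaker region between Cyt-c1L and eEF1gamma scored 65.4 in replicate 1 and 22.3 in replicate 2, and the region between CG4267 and Ser12 scored 54.2 and 23.4.

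**Figure D2:**
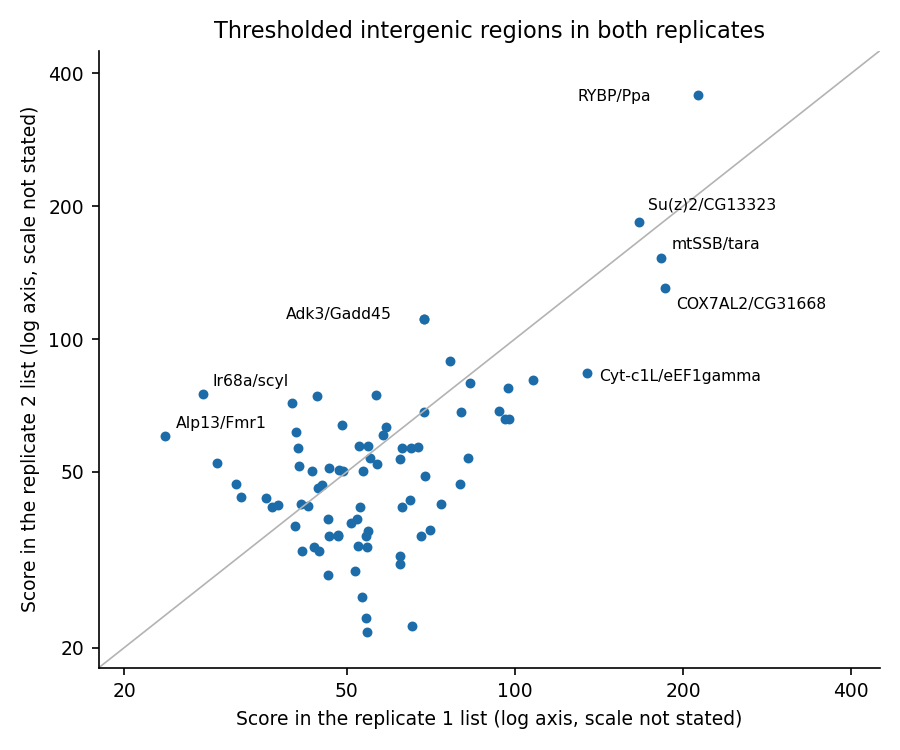
Score in the replicate 2 list against score in the replicate 1 list, both on log axes, for the 81 thresholded intergenic regions that overlap a region of both lists, with the line of equal scores in grey. RYBP/Ppa stands highest with 213 in replicate 1 and 358 in replicate 2, and Alp13/Fmr1 and Ir68a/scyl lie far above the line.

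Intergenic summits lay at a median of 5473 bp from the nearest protein-coding TSS, and the middle 50% were between 2489 and 11999 bp away. The thresholded ones were closer, with a median of 3846.5 bp and a range of 526 to 32915 bp. Of all intergenic regions 1284 (31.3%, 29.9 to 32.7%) lay over 10 kb from a TSS, and of the thresholded ones 15 of 82 (18.3%, 11.4 to 28.0%). The sequence that could hold an intergenic summit, called eligible below, came to 39.4 Mb, or 28.8% of the arms. It includes sequence of the Y chromosome, which held no region of the pooled list. Densities over all eligible sequence are the lower for it. Intergenic regions stood in it at 10.4 per 100 kb, against 15.5 per 100 kb for the rest of the pooled list in the other sequence. For thresholded regions the gap was wider, 2.08 per Mb in eligible sequence against 7.03 per Mb elsewhere.

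Density was nearly level up to 5000 bp from a TSS and lower beyond. It was 14.95 regions per 100 kb at over 500 to 1000 bp, 14.5 at over 1000 to 2000 bp and 14.7 at over 2000 to 5000 bp. It was then 12.3 both at over 5000 to 10000 bp and at over 10000 to 20000 bp, 7.43 at over 20000 to 50000 bp and 0.843 farther out. The farthest class holds 17.7% of eligible sequence and 59 regions. The thresholded share declined over the same classes, from 2.88% and 3.78% in the nearest classes to 2.06%, 1.80%, 1.44% and 0.767%, and 0 of the 59 farthest regions was thresholded, which allows a share of up to 5.08%. The intervals of neighbouring classes overlap. Transposable elements covered 10.5% of eligible sequence but held 73 intergenic summits (1.78%, 1.42 to 2.23%), 1 of them thresholded. Outside transposable elements the density was 15.3 per 100 kb in the nearest class and 0.830 in the farthest.

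**Figure D3:**
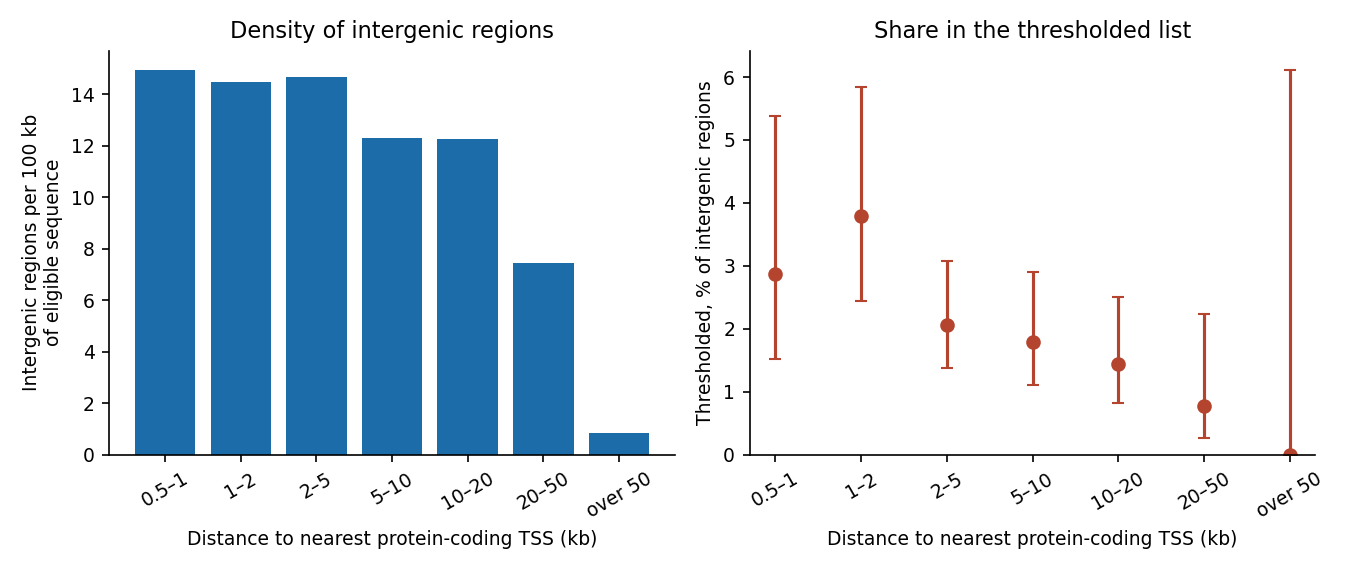
Left, intergenic regions per 100 kb of eligible sequence by distance of the summit to the nearest protein-coding TSS in kb, as bars. Right, the share of these regions in the thresholded list (%), with 95% Wilson intervals over regions. Density stays between 14.5 and 14.95 in the 3 nearest classes and is 0.843 in the farthest, which has no thresholded region.

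The arms were unevenly filled. Intergenic density was 14.4 per 100 kb on 2L, 13.1 on 3R, 11.99 on 3L, 9.48 on 4, 9.14 on 2R and 5.04 on X. The rest of the pooled list was also sparser on X, at 10.5 per 100 kb of other sequence against 16.7 to 17.6 on 2L, 2R, 3L and 3R. On 4 it was sparser still, at 7.14, below the intergenic density there. X held 270 intergenic regions with the lowest median score of the arms, 32.2. Of these 9 (3.33%) were thresholded, against 2.00% of all intergenic regions, and a share that rests on 9 regions is imprecise. The fourth chromosome held 24 intergenic regions, of which 0 were thresholded, which allows up to 12.5%.

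The flanking genes pointed in all directions. They were divergent, so that the region faced both 5' ends, for 1141 regions (27.8%, 26.5 to 29.2%), and divergent gaps held 22.4% of eligible sequence. They had the same direction for 2059 regions (50.2%), with 51.2% of eligible sequence, and were convergent for 895 (21.8%), with 21.6%. The remaining 9 regions lay at arm ends. Among thresholded regions 27 of 82 were divergent (32.9%, 23.7 to 43.7%) and 15 convergent (18.3%). The density was 12.9 regions per 100 kb in divergent gaps, 10.2 in gaps with genes of the same direction and 10.5 in convergent gaps. Divergent gaps also lie closer to TSSs by their build: the median TSS distance of their regions was 3652 bp, against 8473 bp in convergent gaps. The nearer flanking gene turned its 5' end to the summit in 51.8% of intergenic regions and 51.2% of thresholded ones.

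Of the 15 thresholded regions over 10 kb from any protein-coding TSS, 14 are described one by one, as the rule is meant to find regions away from promoters. The highest was the region beyond Su(z)2, at 11925 bp from the nearest TSS. The farthest lay between plh and corto, the gene of a chromatin protein that binds Polycomb and trithorax group proteins, at 32915 bp, with a score of 87.3, 40.4 in replicate 1 and 37.7 in replicate 2. The next farthest lay at 25129 bp between Tollo, a Toll-family receptor gene, and Best4, a gene of the bestrophin family, with a score of 91.8. Others stood near developmental regulators. The region 9211 bp past the end of mid, a T-box gene of heart and nervous system, scored 96.6, with 62.3 in replicate 1 and 31.0 in replicate 2. The region between Ids and sty scored 91.4 and lay 6228 bp from the end of sty, the gene of the receptor tyrosine kinase antagonist Sprouty. The region between betaTub60D, a tubulin gene, and slbo, a C/EBP factor gene of border cell migration, scored 82.5. The region between lz and c12.1 scored 83.5, with 29.3 in replicate 1 and 52.4 in replicate 2. The region between CG18404 and heca, the gene of the headcase protein of imaginal cells, scored 97.7, and that between CG43336 and pxb scored 106. Further ones lay between CG7320 and CheA75a, a gene of the CheA chemosensory family (122), between CG6168 and CG6163 (89.9) and between Osi21 and CG14926 (87.2), and 2 lay between hng3 and CG13898 (96.7 and 86.3).

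Intergenic regions were spread over 1921 of the 7322 gaps between transcripts that had eligible sequence (26.2%), and 919 gaps held more than 1. A gap of up to 2000 bp held a region in 5.08% of cases, one of over 10000 to 20000 bp in 79.4% and one of over 20000 to 50000 bp in 83.7%. Longer gaps hold more sequence, and the density in these classes was 12.3, 14.3 and 11.6 regions per 100 kb. Over 50000 bp it was 2.58, and 57.0% of gaps held a region. Regions were called clustered where 3 or more successive summits of a gap lay at most 5 kb apart. There were 370 such clusters with 1411 regions (34.4%, 32.9 to 35.8%), 75 of them with 5 regions or more, while 1597 regions stood alone. Clustered regions were not more often thresholded: 26 of 1411 were (1.84%, 1.26 to 2.69%), against 56 of the 2693 others (2.08%, 1.60 to 2.69%). Their median score was 34.4, against 33.5 for the others. Neighbouring regions need not be separate signals, as 122 intergenic regions overlapped the one before them.

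The largest cluster lay on 3L between hng3 and CG13898, with 16 regions over 31622 bp and 3 of them thresholded. All 16 overlapped a replicate 2 region and 14 a replicate 1 region. The whole gap of 47937 bp between these genes held 19 regions, the most of any gap between protein-coding genes together with kek1/ACXC, and 4 were thresholded, the most of any pair. The thresholded regions stood 6982, 32287, 36076 and 47401 bp from the 5' end of hng3, with scores of 95.4, 86.3, 96.7 and 165. The strongest was 537 bp beyond the 3' end of CG13898, with 83.0 in replicate 1 and 79.4 in replicate 2. The other 15 regions between hng3 and CG13898 scored between 29.1 and 62.6. The gap holds 2 tRNA genes for isoleucine, the only noncoding genes annotated in it. hng3 flanked 27 intergenic regions in all, the highest count of any gene, and a thresholded region with a score of 85.1 lay on the other side of CG13898, towards Sf3b3, a splicing factor gene. The median score within the cluster was 44.7, against 33.8 for all intergenic regions.

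**Figure D4:**
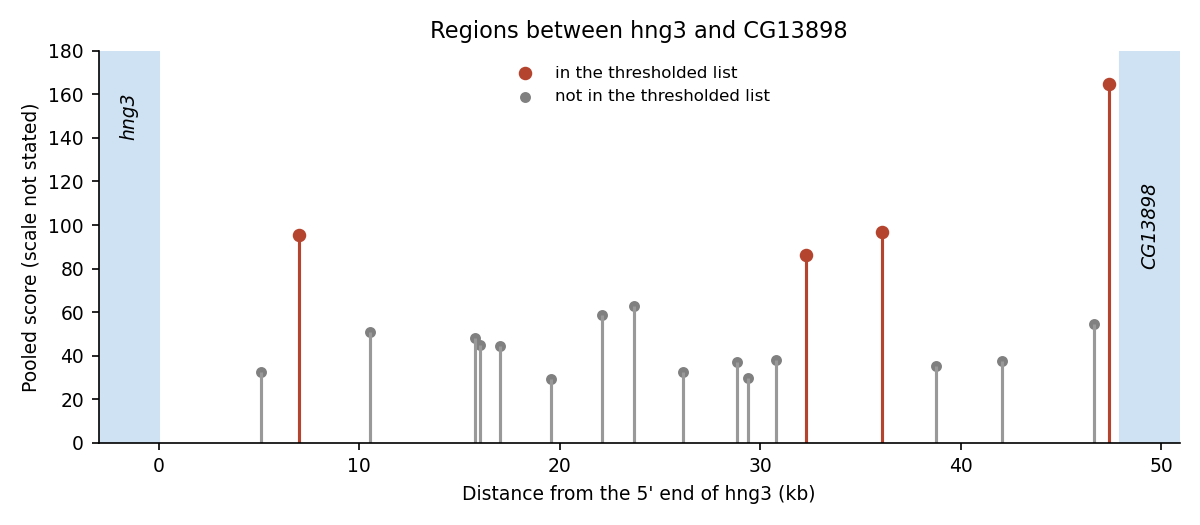
Pooled score of each of the 19 intergenic regions between hng3 and CG13898 against its distance from the 5' end of hng3 in kb. The 4 thresholded regions, in red, score 95.4, 86.3, 96.7 and 165 from left to right, and the genes at either side are shaded.

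The 7 next largest clusters held no thresholded region. Between toe and eyg, paired Pax-type genes of eye development, 11 regions scored up to 42.3, and between CG31612 and tsh, the gene of the zinc finger factor Teashirt, 10 regions scored up to 40.9. In the cluster beside tsh 10 regions overlapped a replicate 1 region and 2 overlapped a replicate 2 region, so it rests mainly on replicate 1. The cluster between Ir67c, a gene of the ionotropic receptor family, and Gem3, a helicase gene, held 9 regions. Clusters of 8 lay between AOX4, an aldehyde oxidase gene, and CG43335, between CG43168 and Or65a, an odorant receptor gene, between CG44362 and CG7560, and between CG7420 and CG18132, with highest scores of 50.8, 45.3, 44.2 and 41.2. By single gap, AOX4/CG43335 led with 18 regions in 82634 bp, before Sdr/CG14861 with 17 in 80519 bp, where Sdr encodes a secreted decoy of the insulin receptor. NijA/CG43245 held 15 in 75047 bp, kek1/ACXC 14 in 70634 bp and Tollo/Best4 13 in 56125 bp. ND-MLRQ/AGO3 held 15 regions in 208656 bp and CG11041/CG16894 held 13 in 60639 bp. In these 7 gaps only Tollo/Best4 had a thresholded region. The tRNA genes split the gap beside hng3, and its longest stretch, of 32964 bp, held the 16 clustered regions at 4.85 regions per 10 kb of eligible sequence, against 2.20 in the gap of AOX4, 2.11 in that of Sdr and 0.721 in that of AGO3, a Piwi-family gene.

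Apart from hng3/CG13898, pairs with 2 thresholded regions were CG6168/CG6163, mtSSB/tara, Cyt-c1L/eEF1gamma, COX7AL2/CG31668, CG43245/CG12523, RYBP/Ppa and Adk3/Gadd45. These pairs include the highest-scoring intergenic regions of the list down to a score of 180, other than that beside Su(z)2.

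Genes of the body plan were the most often flanked, and they also had the most eligible sequence around them. Over all protein-coding genes, 2656 of 13968 (19.0%) flanked an intergenic region. Of 22 gene lists, 15 had a higher share than that and 7 a lower one, and 17 had more eligible sequence per gene than the median of 0.0780 kb over all genes. The Hox and segmentation list came first with 30 of 37 genes (81.1%) and a median of 22.4 kb of eligible sequence per gene. Its members with the highest scores were drm and hry, at 75.2 and 72.6, followed by Dfd and Scr, which share a region with a score of 54.6. Antp, the Hox gene of the second thoracic segment, flanked 13 regions. None of the 115 regions beside this list was thresholded, which allows up to 2.61%. Its density was 12.7 regions per 100 kb, against 10.4 over all genes and 12.5 in eligible sequence within 50 kb of a TSS.

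Developmental transcription factors followed with 84 of 130 (64.6%) and cell adhesion and axon guidance genes with 78 of 127 (61.4%). Among the developmental transcription factors 6 genes flanked a thresholded region, or 4.62% against 0.995% over all genes. By region the share was that of the background, with 7 of the 340 regions beside this list thresholded (2.06%), against 2.00% of all intergenic regions. They were tara, ct, mid and lz, described above, C15, a homeobox gene, and srp, the GATA factor gene of fat body and blood, with the last 2 added after their values were seen. The region of srp lay 1381 bp upstream of it and scored 82.2. The genes of this list with the most regions were vvl with 22, hth with 20 and noc with 18, and none of these had a thresholded one. In the adhesion list, ds, the gene of the atypical cadherin Dachsous of planar polarity, had a region 650 bp upstream with a score of 112, and ed, the gene of the adhesion protein Echinoid, one 724 bp upstream with 112. Its summit lies in an annotated transposable element, and the replicates differed there, with 40.0 in replicate 1 and 71.7 in replicate 2. Tollo had the third. Of the genes of this list 2.36% flanked a thresholded region, against 0.995% of all genes. By region 3 of 373 (0.804%) were thresholded, against 2.00% of all intergenic regions. kek1 flanked 26 regions with a highest score of 61.6.

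The lists of signalling genes held 5 genes with a thresholded region, Ser being in both. In the list of Notch, EGFR, Wnt and Hedgehog components 19 of 41 (46.3%) flanked a region, against 19.0% of all genes. A thresholded one was flanked by 3 (7.32%), against 0.995% of all genes. The density of this list, 19.9 per 100 kb, was above that of all lists but the immune genes. Of the 85 regions beside it 3 were thresholded (3.53%), and of the 62 beside secreted signals also 3 (4.84%), against 2.00% of all intergenic regions. The genes were ptc, the Hedgehog receptor gene, with a region 5270 bp upstream that scored 122, sty with 91.4, and Ser, the gene of the Notch ligand Serrate, with 81.2. In the list of secreted signals 25 of 55 (45.5%) flanked a region and 3 (5.45%) a thresholded one, against the same backgrounds. These were dpp, the BMP ligand gene, with 105 at 1735 bp upstream, daw, an activin-like ligand gene, with 89.4 at 2509 bp upstream, and again Ser. The region of dpp scored 64.9 in replicate 1 and 43.2 in replicate 2. wg, the Wnt ligand gene, flanked 11 regions, of which the highest scored 54.7.

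The Polycomb, trithorax and chromatin list held the highest-scoring flanking genes. Of its genes 10 of 67 (14.9%) flanked a region, below the 19.0% of all genes, but in the replicate 2 list alone the share was 22.4% against 19.1%, and in the upper 50% of the pooled list by score 13.4% against 13.0%. Of the 67 genes 5 (7.46%) flanked a thresholded region, RYBP, Su(z)2, tara, Psc and corto. Of the 45 regions beside any gene of the list 7 (15.6%) were thresholded, against 2.00% of all intergenic regions. The list was chosen with earlier results of these data known, among them the RYBP and tara regions. Without RYBP and tara 3 of 65 genes (4.62%) flanked a thresholded region and 3 of 37 regions (8.11%) were thresholded. Su(z)2 is still among these genes, so leaving out RYBP and tara does not make the list independent of the data. In the activity and stress list 10 of 25 genes (40%) flanked a region, against 19.0% of all genes. A thresholded one was flanked by 2 (8%), against 0.995% of all genes. Of the 24 regions beside this list 2 (8.33%) were thresholded, against 2.00% of all intergenic regions. The genes were foxo, with a region 4684 bp upstream that scored 97.1, and Atf3, a bZIP factor gene, with 91.8 at 1934 bp upstream.

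Lists of sensory and neural genes were flanked above the background of 19.0%. Between 1.32% and 3.92% of their genes flanked a thresholded region, against 0.995% of all genes. By region the shares were near the background, with 1.80% to 2.78% thresholded, against 2.00% of all intergenic regions. These lists also had more eligible sequence, a median of 0.232 to 2.18 kb per gene against 0.0780 kb over all genes. Of 111 ion channel and neurotransmitter receptor genes 49 (44.1%) flanked a region and 3 a thresholded one, Shal with 133 and the sodium channel family genes ppk23 with 119 and ppk with 95.9. Of 76 neuropeptide and peptide receptor genes 27 (35.5%) did, and 1, CNMa, a thresholded one with 78.2 that Cpr62Bc, a cuticle protein gene, also flanked. Per 100 kb of eligible sequence, however, this list had 5.22 regions, below the 10.4 over all genes. The channel, chemoreceptor and odorant-binding protein lists had 13.6 to 15.9, against 12.5 in eligible sequence within 50 kb of a TSS. Of 180 chemoreceptor genes 60 (33.3%) flanked a region and Or45b, Ir68a and Gr93d a thresholded one, with 96.5, 96.3 and 84.1. Of 51 odorant-binding protein genes 15 (29.4%) did, and Obp56g and Obp56h shared a thresholded region with 107. In the seminal fluid list 14 of 47 did, and Sfp93F flanked a region with 119. Among cuticle and chitin genes 37 of 143 (25.9%) did, and 1 (0.699%) flanked a thresholded region.

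The shares of flanking genes in lists of metabolic and housekeeping genes were near or below the background of 19.0%. Per 100 kb of eligible sequence the direction turned for several, against 10.4 over all genes and 12.5 within 50 kb of a TSS. The density was 20.2 regions beside immune genes, 15.6 beside proteasome genes and 14.5 beside heat shock genes. Beside the serine proteases and detoxification genes it was 13.7 and 12.9, little above the 12.5. It stayed lower for ribosomal protein genes at 6.94 and for glue genes at 3.47. The proteasome, heat shock and glue values rest on 12, 9 and 1 regions and are imprecise. Detoxification enzymes had 31 of 158 (19.6%), a share that fell below that of all genes in either replicate list alone, immune peptides and recognition genes 10 of 60 (16.7%), cytosolic ribosomal proteins 15 of 93 (16.1%) and serine proteases 3 of 27 (11.1%), all with no thresholded region. A count of 0 among the 86, 29 and 41 regions beside the first 3 of these lists allows thresholded shares of up to 3.49%, 10.3% and 7.32%, in that order, and the proteases had only 4 regions. Heat shock protein genes had 2 of 21, Hsp60B and Hsp60C, and Hsp60B shared the thresholded region with ds. Of 48 proteasome genes 4 (8.33%) flanked a region, and these were Prosalpha6T, Prosbeta5R1, Prosalpha3T and Prosbeta5R2, the testis-type paralogs. Of 22 glue and late puff genes only Sgs5bis did (4.55%), and these are salivary gland genes of the ecdysone response.

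**Figure D5:**
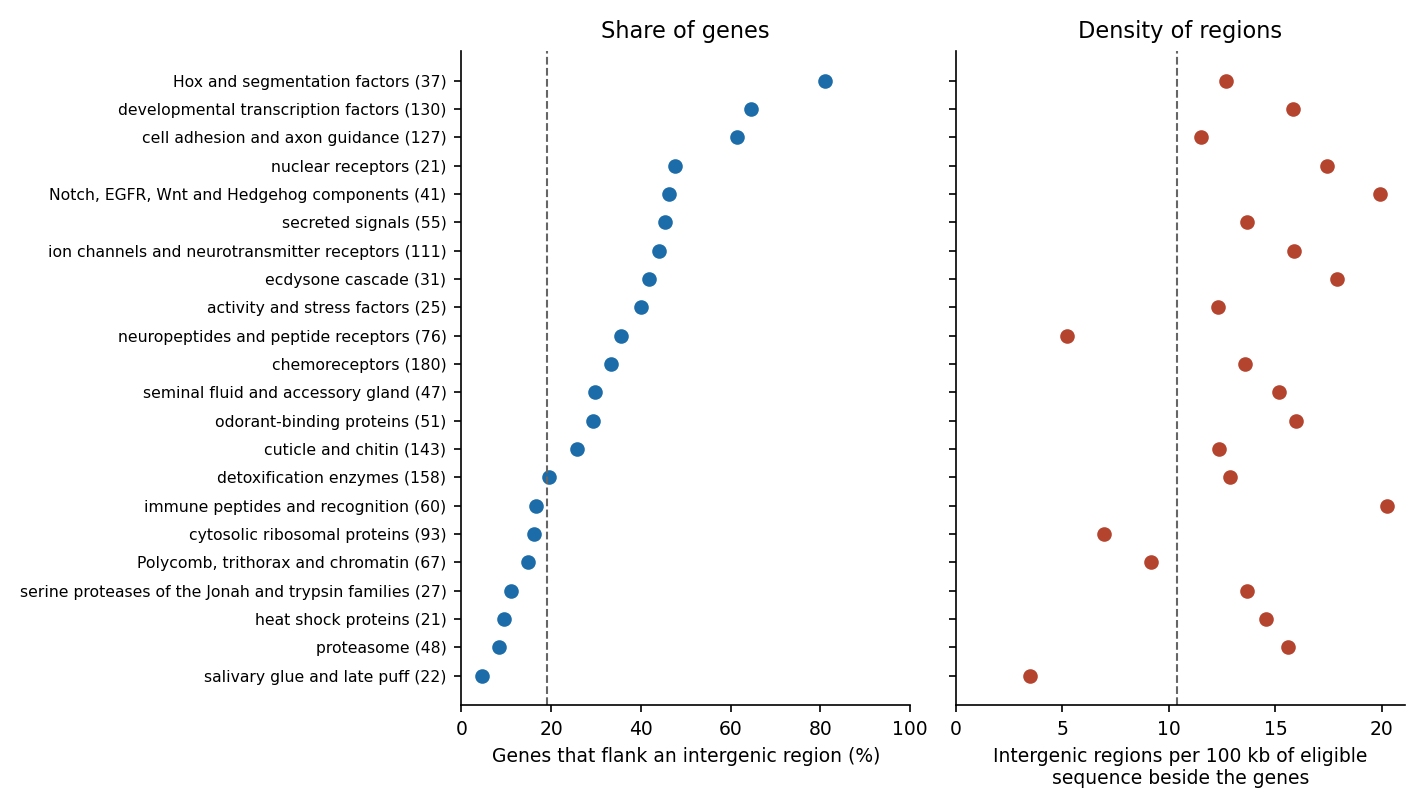
Left, share of the genes of each list that flank an intergenic region (%), with the number of genes in brackets and the share over all protein-coding genes, 19.0%, as a dashed line. Right, intergenic regions per 100 kb of eligible sequence beside those genes, with the 10.4 of all genes as a dashed line. On the left 15 of 22 lists lie above the line, and on the right 18 of 22. Against the density of 12.5 in eligible sequence within 50 kb of a TSS, 15 of 22 lists are higher.

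Of 31 genes of the ecdysone cascade 13 (41.9%) flanked a region and 1 (3.23%) a thresholded one, and 1 of the 57 regions beside them was thresholded (1.75%), against 2.00% of all intergenic regions. That gene was Ldh, the lactate dehydrogenase gene, with a region 12348 bp upstream of it that scored 78.8 but lay 745 bp from the TSS of its other neighbour, CG43168. Blimp-1 and Eip93F, transcription factor genes induced by ecdysone, followed with 77.9 and 74.4, both outside the thresholded list. The death gene rpr flanked 21 regions of at most 43.9. Of 21 nuclear receptor genes 10 (47.6%) flanked a region and none a thresholded one, so that 0 of the 46 regions beside them allows up to 6.52%. Hr38 had the highest score in that list. It flanked 5 intergenic regions, all in the gap to CG9316, with scores of 54.9, 54.8, 49.996, 39.4 and 31.8. The highest of them scored 16.2 in replicate 1 and 33.7 in replicate 2, and the second 41.9 and 12.8, so the replicates rank these regions in opposite order. A thresholded region beside Hr38 with a score of 108 lay 101 bp from a TSS of Cen and so was no member.

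At the limits of the rule, the members nearest to a TSS were those at 503 bp from CG4815 and Cpr100A and at 504 bp from nrv1, with scores of 33.5, 34.2 and 30.4. Just outside were summits at 500 bp from Ent1, 498 bp from erm and 497 bp from CrebA, with scores of 45.2, 36.8 and 55.6. In all, 1184 pooled summits lay outside transcripts but within 500 bp of a TSS.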

How the data were processed

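Regions came from the dm6 narrowPeak lists that the authors deposited: a pooled list, a list of each replicate (30000 and 29031 regions on the arms) and an IDR-thresholded list. Per the labels these lists of peaks and background were the input of an IDR analysis. Which aligner, peak caller and IDR value were used is not given in the sources used here. As deposited, the score is the authors' own signal value, of unstated scale, and was used to rank and describe regions. The deposited -log10 q value is the authors' as well. No read counts were used.

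Summits were placed against Ensembl release 115, and sequence came from the RefSeq release 6 assembly. Flanking genes are the nearest protein-coding gene on each side. Eligible sequence has no N, lies outside transcripts other than transposable elements and over 500 bp from a protein-coding TSS. It includes that of the Y chromosome, also for the windows cut from it. Overlap is 1 shared bp, and of several overlapping replicate regions the highest-scoring is given. Thresholded regions were found in the pooled list by identical coordinates. Windows of 100 bp to either side of each summit were scanned for motifs, on the plus and the minus strand. Shares carry 95% Wilson intervals (scipy), which cover counting error over regions only, and 0 counts a limit of 3 counts. With 1 group no condition was compared and no test was run. The code for classes, flanks, clusters and overlaps was tested on simulated data.

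The members, 22 gene lists, 13 motifs and the clusters were chosen with earlier results of these data known. List entries were matched to current symbols, and 13 were not matched. Named are the flanking genes of the 20 highest intergenic regions, of thresholded ones over 10 kb from a TSS, of the 8 clusters and 8 gaps with the most regions, of the 5 with the largest rank difference, up to 4 members of each list by score and by number of regions, and Hr38. Tables were handled with pandas 2.3.3 under Python 3.11.15, sequence masks with numpy 2.4.6, intervals with scipy 1.17.1 and plots with matplotlib 3.10.9. Sequences of 1 chromosome arm, and the regions and values of 1 gap that the naming rule would include, are not reported here.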

Additional observations from a re-analysis of the deposited data

How the results depend on the processing

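Under the alternatives 131 values moved by less than their interval, or for counts by less than 1.5 times, and 60 moved by more. The intergenic share, 21.3%, became 22.6% and 19.7% with a TSS limit of 250 and 1000 bp, 20.04% with the whole region outside, 23.6% against protein-coding transcripts only and 17.8 to 23.8% from 1 replicate list alone. The share over 10 kb from a TSS, 31.3%, became 29.5% and 33.9% at those limits and 25.8 to 33.7% from 1 list. The clustered share, 34.4%, became 11.9% and 49.0% with summits 2 and 10 kb apart, 10.8% for 5 or more regions and 29.5 to 42.1% from 1 list. In the upper 50% of the pooled list by score there were 1809 intergenic regions (18.8%), with 29.6% over 10 kb away, 13.7% clustered, 4.53% thresholded and a difference from the rest of -4.23 percentage points, against -2.52. There 13.0% of all genes, 62.2% of Hox, 48.0% of adhesion and 49.2% of developmental factor genes flanked a region. With the upper 50% of the thresholded list these were 0.804% and -1.51 points. The ratio of median scores, 0.963, ran from 0.923 to 0.974 from 1 list. Overlap with replicate 1 was 74.5% where 50% of the region had to be covered and 64.7% for as many replicate as pooled regions, and with replicate 2 it was 54.3% and 44.9%. With flanks of any biotype 25.8% were divergent and 23.7% convergent, and among thresholded regions 32.9% and 18.3%. With flanks within 10 kb 17.3% of all genes counted. Within 50 and 250 bp of the summit the NBRE share was 0.268% and 1.75%, and that of AGGTCA 1.49% and 9.72%, with 3.99 to 4.38% from 1 list. Any overlap with a transposable element gave 2.88%. On which side of all genes a list lay held for 20 of 22 lists in every setting, the others being the Polycomb and detoxification lists. Causes were not tested. No paired analysis was possible because there is 1 group. The lists give no read depth, and shares over regions say nothing of the spread between animals.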

Other observations

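Several strong intergenic regions lay near microRNA genes, which the choice of protein-coding flanks leaves unnamed. This was looked at after the values were seen. Of the 82 thresholded intergenic regions 9 (11.0%, 95% Wilson interval 5.88 to 19.6%) lay within 10 kb of a microRNA gene, against 107 of the 4022 other intergenic regions (2.66%, 2.21 to 3.20%). Such sequence makes up 1.57% of eligible intergenic sequence. Thresholded regions in the rest of the pooled list were within that distance in 31 of 686 cases (4.52%, 3.20 to 6.34%).

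The strongest was the region between Cyt-c1L and eEF1gamma with a score of 223, 1154 bp from mir-279 and 2753 bp from mir-996, microRNA genes that share a seed and are known from neural specification. A weaker thresholded region of that gap, with a score of 82.8, lay 4361 bp from mir-279. The region between CG9300 and Shal was 4545 bp from mir-9a, a microRNA gene of sense organ specification, with scores of 68.9 in replicate 1 and 68.2 in replicate 2. Others were 3294 bp from mir-bft (124), 3792 bp from mir-14 (96.5), 6406 bp from mir-9380 (89.1), 3447 bp from mir-1005 (81.7) and 2178 bp from mir-275 (78.1). Whether Hr38 acts on these genes was not tested.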
